A study of Mus musculus with 9 samples.

Results

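The genes described here are those whose RNA fell to a small remainder when primary SVF cells were induced to become adipocytes, whether or not the purine inhibitor mizoribine (MIZ) was present. SVF cells are the stromal vascular fraction of adipose tissue, the cells that are left once mature adipocytes are removed, and they hold preadipocytes together with other cell types such as macrophages. Members were chosen by the measured means of each group: a gene was a member if its mean in undifferentiated cells was at least 10 CPM (the count of a gene relative to the total of its library, scaled by the same factor in every library) and its means in vehicle-treated and in MIZ-treated differentiated cells were both at most 1/8 of that. Of 32285 gene identifiers, 9554 reached 10 CPM in undifferentiated cells and 206 were members. These CPM values chose the members, so the fall from undifferentiated cells is given as a description without a test, and only MIZ against vehicle, which the rule did not compare, was tested. The rule still caps both of these means.

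Every library came from primary cells of the subcutaneous white adipose tissue of neonatal mice aged 4 to 6 days that the labels call WT, and 3 libraries were made for each of 3 groups. MIZ-treated cells were differentiated for 6 days with 25 µM MIZ, which blocks the IMP dehydrogenases IMPDH1 and IMPDH2 and with them the making of guanine nucleotides. Vehicle-treated cells, which the labels call Differentiated, had the same 6 days with DMSO. Both passed through an induction medium with insulin, dexamethasone and IBMX for 2 days and then a maintenance medium with insulin, troglitazone, rosiglitazone and T3. Undifferentiated cells received neither, so that the state of the cells, the media and their drugs and the time in culture cannot be told apart in any value set against them. The replicates are called biological by the study, but the cells are a mixed primary isolate, and in such bulk samples fewer cells of a type and less RNA per cell cannot be told apart.

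Preadipocytes normally divide a few more times after induction, then leave the cell cycle, dismantle the collagen- and elastin-rich matrix of a fibroblast and switch on the lipid program under PPARγ. Macrophages are a regular part of the SVF. They are known for scavenger receptors, complement C1q and Fc receptors. Dividing cells carry a further set of transcripts, for the mitotic spindle, the centromere and the histones of new chromatin, that resting cells do not make.

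The libraries held 33504937 to 43281818 counts with MIZ, 28760721 to 50262228 with vehicle and 42217231 to 55288455 in undifferentiated cells, so that 1 count was worth 0.0181 to 0.0348 CPM. Mitochondrially encoded genes took 0.686% to 0.836% of the counts with MIZ, 3.82% to 5.002% with vehicle and 0.837% to 0.891% in undifferentiated cells. Adipoq, the adipokine adiponectin and a marker of the mature adipocyte, was at 47.1 to 75.8 CPM with MIZ and at 590 to 628 CPM with vehicle, and at most 1 count was found in an undifferentiated library. All 9 samples are labelled as primary adipocytes, and this marker was absent from the undifferentiated ones. The members together took 0.119% to 0.131% of all counts with MIZ, 0.0933% to 0.113% with vehicle and 1.85% to 1.97% in undifferentiated cells.

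The word silenced fits these genes only in part. With MIZ the median member kept 7.60% of its undifferentiated mean and with vehicle 5.67%, and 34 of the 206 were below 1 CPM in both differentiated means. The lowest undifferentiated library lay over 4 times above the highest differentiated library for all 206, which the rule largely fixes. By the same limits, 251 genes were silenced with MIZ and 543 with vehicle, and the members were 82.1% of the first set and 37.9% of the second. Both sets share the undifferentiated libraries, and these counts are set by the rule. Just inside the limit of 1/8, the higher of the differentiated means was 12.48% of the undifferentiated mean for Cd68, 12.48% for Clec5a and 12.45% for Arhgap18, and just outside it 12.51% for Prrx2, 12.61% for Pclaf and 12.62% for Bmf. At the other limit, Tox (10.4 CPM), P2ry13 (10.95 CPM) and Penk (11.2 CPM) were just inside and B3gnt8 (9.93 CPM), Traf3ip3 (9.80 CPM) and Mmp27 (9.69 CPM) just outside.

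By what their products are known to do, 58 members were placed with myeloid and immune cells, 31 with mitosis and the cell cycle, 12 with the replication-dependent histones, 20 with the extracellular matrix and its enzymes, 19 with secreted signals, receptors and guidance cues, 6 with transcription and chromatin and 60 with other or no common roles. The groups were formed after the members were known. Summed over its 58 members, the myeloid group held 8469 ± 593 CPM in undifferentiated cells (SD, n = 3), the largest sum of the 7 groups, before the secreted group with 3319 ± 82.3 CPM (SD, n = 3).

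**Figure D1:**
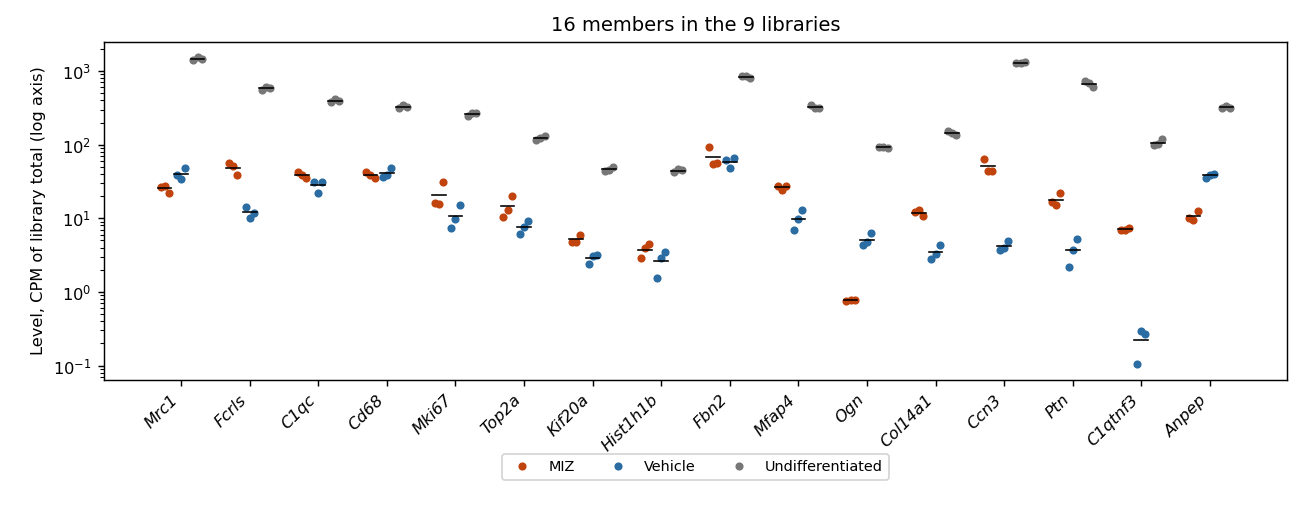
Level of 16 members in CPM (log axis) in each library, with MIZ, vehicle and undifferentiated cells from left to right for each gene; points are libraries (n = 3 per group) and bars are means. Undifferentiated libraries are at the top for every gene, while the order of MIZ and vehicle differs from gene to gene, from C1qtnf3, at 7.001 to 7.34 CPM with MIZ and 0.104 to 0.298 CPM with vehicle, to Ogn, at 0.762 to 0.789 CPM with MIZ and 4.28 to 6.38 CPM with vehicle.

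MIZ was compared with vehicle by edgeR's quasi-likelihood test on all 17173 genes that reached 5 counts in 3 or more libraries, and a gene was called at a Benjamini-Hochberg adjusted p under 0.05. All 206 members passed this filter, 204 of them also on the 6 differentiated libraries alone. The other 2, P2ry13 and Kcns1, passed only through the undifferentiated libraries, whose levels chose the members. P2ry13 was not called, and the Kcns1 call, counted below as higher, is not relied on. With MIZ, 77 members (37.4%) were higher and 47 (22.8%) lower than with vehicle, where 35.9% of all genes tested were higher and 35.1% lower. The share of higher members was thus near that of all genes, and the share of lower members was smaller. Both shares depend in part on the rule, which caps the means with MIZ and with vehicle. It left out 337 genes silenced with vehicle but not with MIZ, and 45 silenced with MIZ but not with vehicle. On the log2 scale, MIZ minus vehicle, the median was 0.23 over the members and 0.02 over all genes. Fold changes were scaled by TMM, and scaling by library totals instead would raise the median of all genes by 0.14 on the log2 scale, to 0.16, and the members' counts to 90 higher and 39 lower. Vehicle libraries had TMM factors of 0.927 to 0.935 and MIZ libraries of 1.01 to 1.04.

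**Figure D2:**
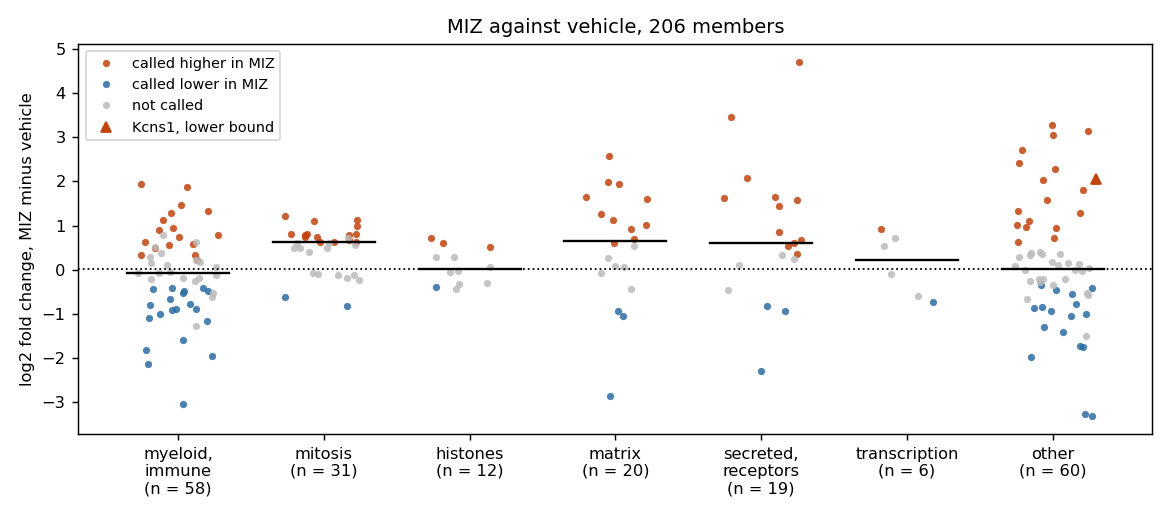
Log2 fold change of MIZ minus vehicle (edgeR, TMM) for the 206 members in 7 role groups, where points are genes coloured by their call, bars are group medians and the dotted line is the median of all genes tested (0.02). The medians of the mitosis (0.62), matrix (0.65) and secreted groups (0.61) lie above the dotted line, and members of the myeloid group fall on both sides of it. The triangle is the lower bound for Kcns1, which had no vehicle count.

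The myeloid members included Mrc1, the macrophage mannose receptor CD206 (chr2:14229392-14332057), which had the highest undifferentiated mean of all members. Mrc1 was at 26.9, 27.9 and 22.2 CPM with MIZ and at 38.7, 34.5 and 48.1 CPM with vehicle, against 1399, 1555 and 1475 CPM in undifferentiated cells. The MIZ libraries all lay below the vehicle libraries, by 0.79 on the log2 scale (SE 0.12, edgeR adjusted p = 9.0e-05), and 1.74% and 2.74% of the undifferentiated mean were left with MIZ and with vehicle. Gpnmb, a glycoprotein of lipid-laden macrophages, moved the same way, with 72.8, 67.8 and 63.0 CPM with MIZ, 106, 115 and 152 CPM with vehicle and 1034 to 1217 CPM in undifferentiated cells. Its log2 fold change between MIZ and vehicle was -1.01 (SE 0.12, edgeR adjusted p = 2.0e-05).

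Fcrls, an Fc receptor-like scavenger molecule of mouse macrophages and microglia, went the other way. It was at 56.7, 51.6 and 38.5 CPM with MIZ, at 14.4, 10.2 and 11.9 CPM with vehicle and at 552 to 599 CPM in undifferentiated cells. MIZ libraries were higher than every vehicle library (log2 fold change 1.89, SE 0.14, edgeR adjusted p = 4.5e-07). Its neighbour on chromosome 3, Cd5l, which codes for a secreted protein of tissue macrophages, was at 10.9, 9.47 and 5.91 CPM with MIZ and 2.78, 2.69 and 4.03 CPM with vehicle, and was also higher with MIZ (1.32, SE 0.22, edgeR adjusted p = 0.00023).

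C1qa and C1qc code for chains of C1q, the first component of the classical complement pathway, and lie side by side on chromosome 4 in a stretch of 9 kb. C1qa was at 33.3, 31.7 and 26.98 CPM with MIZ and 20.2, 14.3 and 20.1 CPM with vehicle, against 239 to 260 CPM in undifferentiated cells. C1qc was at 42.6, 38.3 and 35.2 CPM with MIZ and 31.2, 22.1 and 31.3 CPM with vehicle, against 380 to 412 CPM. MIZ libraries were above vehicle libraries for both genes, with a log2 fold change of 0.62 for C1qa (SE 0.12, edgeR adjusted p = 0.00077) and of 0.32 for C1qc (SE 0.12, edgeR adjusted p = 0.030). The C1qc call was lost without MIZ replicate 1 (0.25, edgeR adjusted p = 0.12), without MIZ replicate 2 (0.34, edgeR adjusted p = 0.054) and without vehicle replicate 2 (0.16, edgeR adjusted p = 0.10). It was also lost with only the 6 differentiated libraries in the fit (0.32, edgeR adjusted p = 0.064).

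Cd68, a lysosomal glycoprotein of macrophages, was the highest macrophage marker among the members per length of transcript, at 31.1 CPM per kb of exon with MIZ and 32.8 with vehicle, against 263 in undifferentiated cells. In CPM it was at 42.8, 38.7 and 35.8 with MIZ and 36.6, 38.8 and 48.2 with vehicle, so that the groups overlapped (log2 fold change -0.21, SE 0.10, edgeR adjusted p = 0.071). Fcgr3, an Fc receptor for IgG, also overlapped, at 13.7, 11.7 and 8.48 CPM with MIZ and 24.4, 13.1 and 11.2 CPM with vehicle. Stab1, a scavenger receptor, was at 53.9, 50.4 and 46.7 CPM with MIZ and 44.1, 23.6 and 30.1 CPM with vehicle, with 575 to 930 CPM in undifferentiated cells, and was not called (0.50, SE 0.22, edgeR adjusted p = 0.060).

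Well below vehicle in the myeloid group were Cd28, the T-cell co-stimulatory receptor, Cd300lf and Cd300a, inhibitory receptors of myeloid cells, and Entpd1, the ectonucleotidase CD39. Cd28 was at 0.116, 0.0564 and 0.149 CPM with MIZ and 0.556, 0.975 and 0.852 CPM with vehicle, against 17.4 to 23.4 CPM in undifferentiated cells (log2 fold change -3.05, SE 0.39, edgeR adjusted p = 3.0e-05). Entpd1 was at 1.22, 0.987 and 0.746 CPM with MIZ and 2.50, 3.26 and 3.70 CPM with vehicle (-1.82, SE 0.18, edgeR adjusted p = 4.3e-06). Cd300a averaged 2.01 ± 0.43 CPM with MIZ and 5.62 ± 0.54 CPM with vehicle, and Cd300lf 0.577 ± 0.13 CPM with MIZ and 2.37 ± 0.71 CPM with vehicle (SD, n = 3 each). Their groups did not overlap, and the calls of these 4 genes stood in all 18 alternative analyses.

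In the opposite direction stood Itga4, the alpha-4 chain of the integrin that binds VCAM1 and fibronectin. It was at 11.2, 12.7 and 12.6 CPM with MIZ and 4.97, 1.79 and 2.45 CPM with vehicle, against 86.8 to 110 CPM in undifferentiated cells (log2 fold change 1.95, SE 0.26, edgeR adjusted p = 4.2e-05). Hpgds, the hematopoietic prostaglandin D synthase, was also higher, at 8.29, 7.61 and 7.999 CPM with MIZ and 4.90, 3.80 and 4.18 CPM with vehicle (0.78, SE 0.10, edgeR adjusted p = 3.9e-05). Tlr7, a sensor of RNA in endosomes, was at 5.11, 6.71 and 6.66 CPM with MIZ and 4.07, 2.43 and 2.47 CPM with vehicle (0.95, SE 0.19, edgeR adjusted p = 0.00081). In the whole group of 58, 17 members (29.3%) were higher and 20 (34.5%) lower with MIZ, against 35.9% and 35.1% of all genes tested. The group's median was -0.08 on the log2 scale. This median was positive without vehicle replicate 1 (0.18) and when scaled by library totals (0.06), so no direction is given for the group. Vehicle replicate 1 held the highest vehicle value for 35 of the 58 members, for instance 12.52 CPM of Fcgr2b, an inhibitory Fc receptor, where the other vehicle libraries had 4.34 and 5.53 CPM.

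Of 24 macrophage and monocyte markers, 22 reached 10 CPM in undifferentiated cells and 6 were members (Mrc1, C1qa, C1qc, Cd68, Fcgr3 and Trem2). Summed over the list, the markers gave 1452 to 1986 CPM with MIZ, 1249 to 1700 CPM with vehicle and 8717 to 9197 CPM in undifferentiated cells. The 16 markers outside the members kept a median of 20.97% of their undifferentiated mean with MIZ and 17.9% with vehicle. Csf1r, the receptor for the macrophage growth factor, kept 14.2% with MIZ and 16.2% with vehicle, and Ptprc, the pan-leukocyte protein CD45, was at 26.8 CPM with MIZ and 26.98 CPM with vehicle, against 149.9 CPM in undifferentiated cells. Adgre1, the F4/80 antigen, was at 408 CPM with MIZ, 177 CPM with vehicle and 242 CPM in undifferentiated cells. Among the other markers outside the members, Cd14, a receptor for bacterial lipopolysaccharide, was at 144% of its undifferentiated mean with MIZ and 113% with vehicle. Lgals3, galectin-3, was at 24.97% with MIZ and 111% with vehicle. F13a1, a coagulation factor chain, was at 17.7% with MIZ and 93.2% with vehicle. Pf4, platelet factor 4, was at 58.3% with MIZ and 50.5% with vehicle. The markers of this list thus differed widely in what was left. None of 14 lymphocyte markers reached 10 CPM in undifferentiated cells and together they gave 1.73 to 2.01 CPM there, beside which Cd28 was at 17.4 to 23.4 CPM. The 20 blood endothelial markers summed to 242 to 262 CPM with MIZ, 106 to 124 CPM with vehicle and 183 to 211 CPM in undifferentiated cells. Of them, 5 reached 10 CPM in undifferentiated cells. Flt1, a VEGF receptor, was at 512% of its undifferentiated mean with MIZ and 244% with vehicle. Eng, endoglin, was at 127% with MIZ and 24.6% with vehicle. Tek, the angiopoietin receptor, was at 9.39% with MIZ and 18.8% with vehicle. Both others were members. Of these, Vwf, the von Willebrand factor, was at 1.41, 1.52 and 2.63 CPM with MIZ and 2.92, 2.81 and 2.87 CPM with vehicle, and Ptprb, an endothelial phosphatase, at 1.22, 1.75 and 2.66 CPM with MIZ and 0.834, 0.378 and 0.353 CPM with vehicle. How far a change in cell types takes part in the levels of the members was not tested.

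PU.1, an ETS-family transcription factor of macrophages, binds purine-rich sites around GGAA. Promoters were available from RefSeq (GRCm38.p6, 250 bases before to 50 after the start, the first start of each gene) for 163 of 206 members, 49 of them in the myeloid group. The letters GAGGAAG, searched on both strands and chosen after the members were seen, were in 25 of these 49 promoters (51.0%), in 13.8% of the promoters of genes that reached 10 CPM in undifferentiated cells and in 13.5% of all 27025 promoters. In 18 promoters a match began within 50 bases of the start. The following stretches of 30 bases, from 8 of the members, are shown to let the sequence around the match nearest the start be read. They run 5′ to 3′ on the strand of the gene, and capitals mark the match, which reads CTTCCTC where it lies on the opposite strand.
Mrc1, chr2:14229367-14229396, plus strand: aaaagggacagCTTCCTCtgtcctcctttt
Trem2, chr17:48346349-48346378, plus strand: agcctcctttcCTTCCTCcctccctcacgc
Cd5l, chr3:87357803-87357832, plus strand: cagtcacctccCTTCCTCtggccatgctga
Tlr13, chrX:106143181-106143210, plus strand: aaaaaagagaaGAGGAAGgaaatgtctcat
Hpgds, chr6:65144761-65144790, minus strand: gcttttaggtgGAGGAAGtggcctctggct
Fcgr3, chr1:171059392-171059421, minus strand: gagtccatttcCTTCCTCtttttgtagttc
Pycard, chr7:127993892-127993921, minus strand: tccccaccccaCTTCCTCcaccaacccacc
Cd300a, chr11:114889990-114890019, plus strand: ggctagcaggtCTTCCTCtccacaaggctg

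Mrc1 holds a further match in the 250 bases before its start (chr2:14229164-14229413, plus strand), which are given whole because Mrc1 had the highest level of the members, with both matches in capitals.
Mrc1 upstream: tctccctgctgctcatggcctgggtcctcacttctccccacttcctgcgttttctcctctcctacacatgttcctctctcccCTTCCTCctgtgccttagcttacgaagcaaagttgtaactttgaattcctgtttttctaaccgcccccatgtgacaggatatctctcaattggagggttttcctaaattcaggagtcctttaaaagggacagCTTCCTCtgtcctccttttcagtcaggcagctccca
A match describes the letters only. Members with a match went both ways between MIZ and vehicle, since Mrc1 and Cd300a were lower and Hpgds and Cd5l were higher.

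The mitosis group held 31 members, among them Mki67, the Ki-67 protein that coats mitotic chromosomes, Top2a, the topoisomerase that untangles them, the kinesins Kif11, Kif20a and Kif23, the centromere proteins Cenpa, Cenpe and Cenpf, the mitotic cyclins Ccnb1 and Ccnb2, and the kinases Plk1, Bub1 and Nek2. Mki67 was at 15.9, 15.9 and 30.9 CPM with MIZ and 7.37, 9.71 and 15.3 CPM with vehicle, against 244, 273 and 272 CPM in undifferentiated cells. Top2a was at 10.4, 13.1 and 20.1 CPM with MIZ and 6.12, 7.74 and 9.25 CPM with vehicle, against 114, 124 and 129 CPM. Kif20a was at 4.83, 4.71 and 6.00 CPM with MIZ and 2.43, 3.08 and 3.14 CPM with vehicle, against 44.2, 45.1 and 49.4 CPM. For all 3 genes every MIZ library lay above every vehicle library, although both stayed far under the undifferentiated level.

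With MIZ, 15 of the 31 (48.4%) were higher and 2 (6.45%) lower than with vehicle, against 35.9% and 35.1% of all genes tested. The group's median was 0.62 on the log2 scale. The log2 fold change was 0.75 for Top2a (SE 0.22, edgeR adjusted p = 0.0094), 0.68 for Kif20a (SE 0.12, edgeR adjusted p = 0.00052) and 1.12 for Hmmr, a spindle-associated hyaluronan receptor (SE 0.20, edgeR adjusted p = 0.00042). The lower members were Cenpa, the histone H3 variant of centromeres, at 2.38, 2.71 and 2.39 CPM with MIZ and 2.50, 4.22 and 4.95 CPM with vehicle (-0.82, SE 0.20, edgeR adjusted p = 0.0033), and Cdca3, which helps entry into mitosis (-0.63, SE 0.18, edgeR adjusted p = 0.0096). The median stayed positive in every alternative analysis, between 0.35 and 0.78.

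The count in this group rested on single libraries. MIZ replicate 3 held the highest MIZ value for 30 of the 31 genes and vehicle replicate 3 the highest vehicle value for 29, and summed over the group the MIZ libraries held 78.5, 89.1 and 140 CPM, the vehicle libraries 46.2, 61.2 and 82.7 CPM and the undifferentiated libraries 1032, 1127 and 1161 CPM. Without MIZ replicate 3 the count was 7 higher and 4 lower (median 0.35), without vehicle replicate 2 it was 8 higher and 2 lower, and with only the 6 differentiated libraries in the fit it was 8 higher and 2 lower. In the other direction, 19 were higher without MIZ replicate 1, and 18 without vehicle replicate 3, with library totals and by DESeq2. Mki67 itself was called (0.79, SE 0.29, edgeR adjusted p = 0.029), but not without MIZ replicate 3 (0.38, edgeR adjusted p = 0.15), without vehicle replicate 1 (0.59, edgeR adjusted p = 0.061) or without vehicle replicate 2 (0.69, edgeR adjusted p = 0.099). Nor was Mki67 called with only the 6 differentiated libraries in the fit (0.80, edgeR adjusted p = 0.058) or by DESeq2 (0.80, DESeq2 adjusted p = 0.056).

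**Figure D3:**
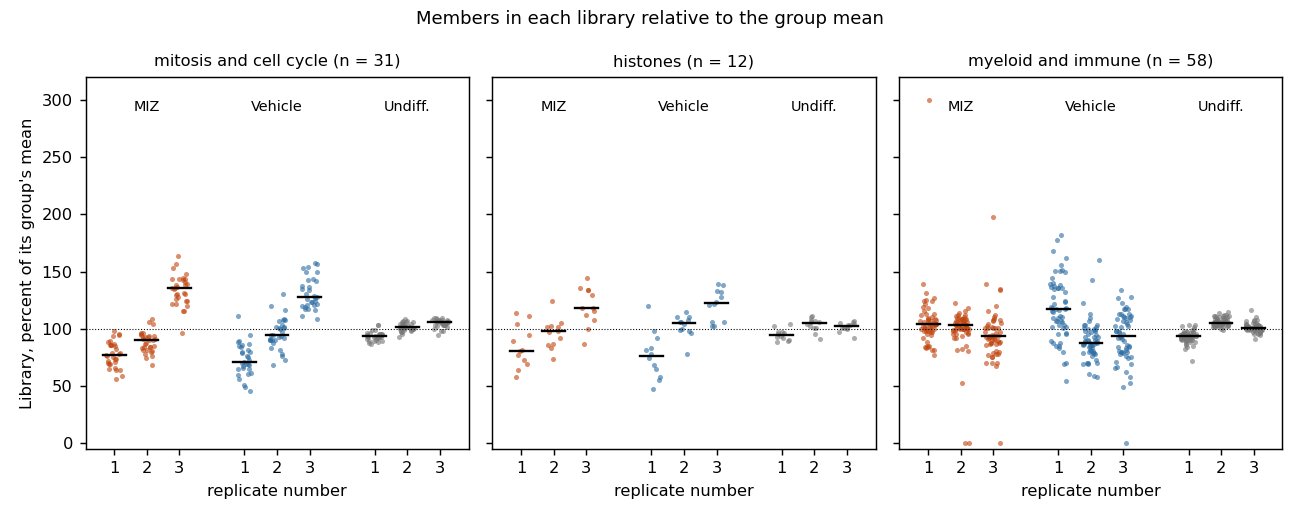
Each library's level as a percent of its group's mean, for the 31 mitosis members, the 12 histone members and the 58 myeloid members, where points are genes, bars are medians over genes and each group (MIZ, vehicle, undifferentiated) has its 3 libraries side by side. Replicate 3 of MIZ and of vehicle stands above 100% for most mitosis genes, the undifferentiated libraries stay close to 100%, and vehicle replicate 1 stands above 100% for most myeloid genes.

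A list of 72 genes of DNA replication and mitosis, of which 58 reached 10 CPM in undifferentiated cells, held 24 of the members. A further 17 were at most 1/8 with vehicle but not with MIZ, none was so with MIZ alone, and 17 were above the limit with both. Genes of DNA synthesis, such as Rrm2, Mcm6 and Pcna, and genes of mitosis, such as Aurka, Cdk1 and Cdc20, were both among those outside the members. Rrm2, a subunit of ribonucleotide reductase, was left at 47.4% of the undifferentiated mean with MIZ and 11.6% with vehicle, Mcm6 of the replicative helicase at 32.2% and 12.7%, and Pcna, the sliding clamp, at 51.6% and 47.7%, each with MIZ before vehicle. Over these 34 genes the median was 23.6% with MIZ and 12.1% with vehicle, and over the 24 members, which the rule bounds, 9.59% with MIZ and 5.64% with vehicle. The whole list gave 365 to 510 CPM with MIZ, 256 to 338 CPM with vehicle and 1963 to 2094 CPM in undifferentiated cells. Of its 72 genes, 40 were higher with MIZ than with vehicle and 7 lower, against 35.9% and 35.1% of all genes tested. The list's median was 0.58 on the log2 scale.

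Promoters of genes expressed in G2 and mitosis often carry the cell cycle genes homology region (CHR), with the letters TTTGAA, through which the MuvB complexes keep them off in resting cells and on in dividing ones. TTTGAA was found on either strand in 20 of the 28 available promoters of the mitosis group (71.4%), in 11.2% of the promoters of genes that reached 10 CPM in undifferentiated cells and in 18.1% of all promoters. The same letters were in 6 of 11 promoters of the histone members (54.5%), so they were not particular to the mitosis group. In 17 of the 28 a match began within 50 bases of the start. The CCAAT box, searched as CCAAT after the members were seen, was also in 20 of the 28 (71.4%) against 38.5% and 37.9% in the same sets, 16 promoters held both and 4 neither. In the next stretches, 30 bases of 8 members around the match nearest the start, capitals mark the CHR letters, which read TTCAAA where they lie on the opposite strand.
Plk1, chr7:122159453-122159482, plus strand: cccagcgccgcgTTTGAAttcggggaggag
Ccnb2, chr9:70421533-70421562, minus strand: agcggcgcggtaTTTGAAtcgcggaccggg
Aspm, chr1:139454767-139454796, plus strand: ggaggcgcgataTTTGAAccgagcaaaagc
Cenpf, chr1:189688067-189688096, minus strand: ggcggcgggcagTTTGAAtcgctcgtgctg
Kif23, chr9:61946780-61946809, minus strand: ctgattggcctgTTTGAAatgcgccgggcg
Hmmr, chr11:40733412-40733441, minus strand: agttgaggtaaaTTTGAAttcaggcgagct
Ube2c, chr2:164769888-164769917, plus strand: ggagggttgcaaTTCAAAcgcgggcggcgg
Kif11, chr19:37376351-37376380, plus strand: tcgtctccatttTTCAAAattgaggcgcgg

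The 250 bases before the start of Top2a (chr11:99024190-99024439, minus strand) are shown whole as the example with both motifs. Capitals mark CHR letters (TTTGAA, or TTCAAA on the opposite strand) and CCAAT boxes (CCAAT, or ATTGG on the opposite strand).
Top2a upstream: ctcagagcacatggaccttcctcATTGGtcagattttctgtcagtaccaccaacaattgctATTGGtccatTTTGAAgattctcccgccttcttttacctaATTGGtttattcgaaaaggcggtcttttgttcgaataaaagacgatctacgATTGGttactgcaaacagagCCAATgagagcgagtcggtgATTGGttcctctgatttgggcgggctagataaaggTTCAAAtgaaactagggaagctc

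**Figure D4:**
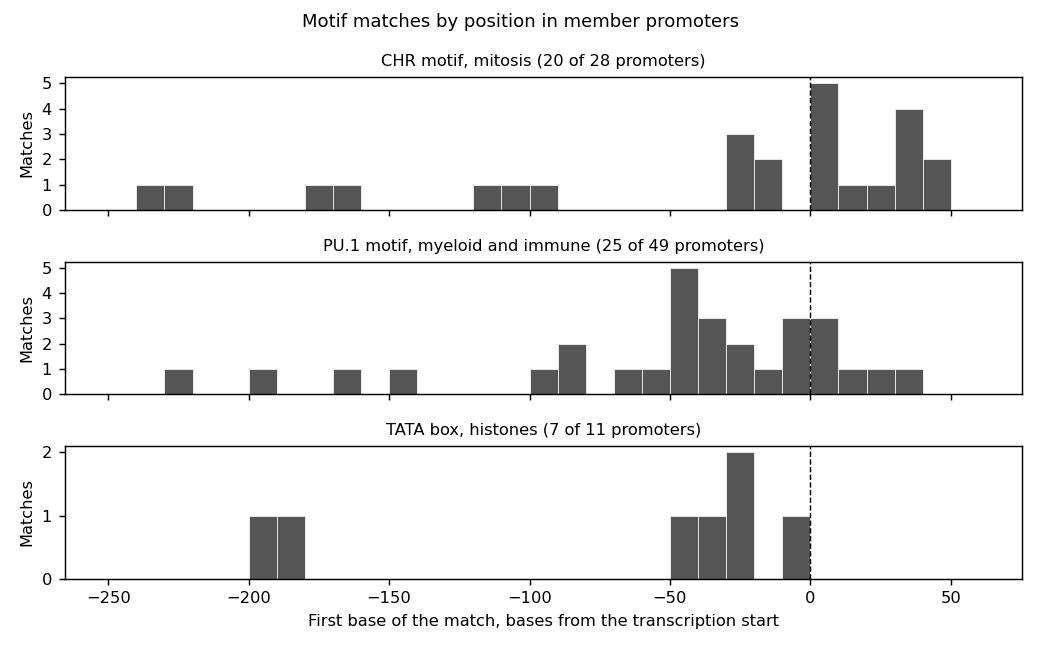
Number of motif matches by the position of their first base relative to the transcription start (dashed line, bins of 10 bases), for the CHR letters in mitosis promoters, the PU.1 letters in myeloid promoters and the TATA letters in histone promoters. Matches crowd near the start, with 17 of 28 mitosis promoters, 18 of 49 myeloid promoters and 5 of 11 histone promoters holding one that begins within 50 bases of it.

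The histones among the members, 12 genes of the replication-dependent class, package newly made DNA and are transcribed in S phase. Their mRNAs mostly end in a stem-loop and lack a poly(A) tail, so that poly(A)-selected libraries see only a part of them, and their near-identical copies make the counts of single genes uncertain. All 12 lie on chromosome 13 in the Hist1 cluster. Hist1h3c, Hist1h2ab, Hist1h3b, Hist1h3a and Hist1h1a stand together in 19.4 kb (chr13:23744973-23764406), Hist1h2bm, Hist1h4j, Hist1h2bn and Hist1h1b in 58.6 kb (chr13:21722044-21780625), and Hist1h2af and Hist1h2bh in 9.49 kb. Hist1h1b, a linker histone and the highest of them, was at 2.89, 3.97 and 4.45 CPM with MIZ and 1.53, 2.92 and 3.53 CPM with vehicle, against 42.4, 46.5 and 44.8 CPM in undifferentiated cells. The MIZ and vehicle libraries overlapped (log2 fold change 0.29, SE 0.23, edgeR adjusted p = 0.28). Of the 12, 3 (25%) were higher with MIZ, 1 (8.33%) was lower and 8 were not called, with a median of 0.02. Over all genes tested, 35.9% were higher and 35.1% lower. The histone median was -0.26 without MIZ replicate 3 and 0.24 without MIZ replicate 1, so that leaving out 1 library turned its sign.

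TATAAA was in 7 of 11 histone promoters (63.6%), in 6.63% of the promoters of genes that reached 10 CPM in undifferentiated cells and in 14.2% of all promoters, and the CCAAT letters were in 10 of 11 (90.9%). The stretches of 30 bases of the 4 members with the match at 28 to 41 bases before the start are given because the TATA letters, in capitals, stand close upstream of the start in each.
Hist1h1b, chr13:21780636-21780665, minus strand: agcaccggcttaTATAAAccaggagcctga
Hist1h1a, chr13:23763623-23763652, plus strand: acagcactgctcTATAAAtactccgtgcag
Hist1h2ab, chr13:23751035-23751064, plus strand: acctccagttagTATAAAtgcttgctgttc
Hist1h3b, chr13:23752304-23752333, plus strand: atagtctgattgTATAAAaggtggacagcg

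Among the matrix members, those of elastic fibres and microfibrils were the most abundant. Fbn2, the fibrillin of developing tissue (chr18:58008623-58210487), was at 91.7, 54.4 and 56.7 CPM with MIZ and 62.0, 48.5 and 65.3 CPM with vehicle, against 817 to 847 CPM in undifferentiated cells, and MIZ and vehicle overlapped (log2 fold change 0.07, SE 0.18, edgeR adjusted p = 0.73). Mfap4, a microfibril-associated protein, was at 27.9, 24.5 and 27.9 CPM with MIZ and 6.88, 9.73 and 13.1 CPM with vehicle, against 315 to 347 CPM, and was higher with MIZ (1.27, SE 0.16, edgeR adjusted p = 3.6e-05). Eln, elastin itself, was at 7.16, 4.397 and 5.85 CPM with MIZ and 7.02, 8.36 and 14.9 CPM with vehicle, against 159 to 226 CPM, and was lower (-0.95, SE 0.28, edgeR adjusted p = 0.011), although 1 MIZ library reached above the lowest vehicle library. Abi3bp, a matrix protein that binds fibroblasts, was at 18.8, 16.4 and 15.6 CPM with MIZ and 5.01, 9.99 and 8.87 CPM with vehicle, and was higher (0.92, SE 0.18, edgeR adjusted p = 0.00076).

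All 3 collagens among the members stood higher with MIZ. Over all genes tested, 35.9% were higher and 35.1% lower. Of 27 genes of fibrillar collagens and their makers tested, 21 were higher and 3 lower, and of 28 other collagens 15 and 9. In these lists 25 and 14 genes reached 10 CPM in undifferentiated cells, of which 1 and 2 were members. Those 25 and 14 genes kept medians of 97.3% and 110% of the undifferentiated mean with MIZ, and 37.5% and 95.0% with vehicle. Col8a2, of the short-chain network collagens, was at 4.57, 3.44 and 6.12 CPM with MIZ and 0.695, 1.07 and 1.39 CPM with vehicle, against 167 to 183 CPM in undifferentiated cells (log2 fold change 1.95, SE 0.24, edgeR adjusted p = 2.3e-05). Col14a1, which sits on collagen fibrils, was at 12.1, 12.8 and 10.7 CPM with MIZ and 2.82, 3.28 and 4.41 CPM with vehicle, against 136 to 151 CPM (1.60, SE 0.13, edgeR adjusted p = 6.3e-07). Col24a1, a minor fibrillar collagen, was at 4.02, 3.38 and 2.84 CPM with MIZ and 1.599, 1.67 and 1.41 CPM with vehicle (1.00, SE 0.14, edgeR adjusted p = 7.8e-05). Plau, the urokinase that activates plasminogen at the cell surface, was at 9.47, 10.9 and 14.7 CPM with MIZ and 5.81, 6.27 and 7.48 CPM with vehicle (0.69, SE 0.15, edgeR adjusted p = 0.0018).

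Ogn, the small leucine-rich proteoglycan osteoglycin, showed the reverse. Its libraries were tight at 0.762, 0.789 and 0.776 CPM with MIZ and stood at 4.28, 4.74 and 6.38 CPM with vehicle, against 91.5 to 93.9 CPM in undifferentiated cells, so that 0.838% of the undifferentiated mean was left with MIZ and 5.54% with vehicle (log2 fold change -2.88, SE 0.16, edgeR adjusted p = 4.1e-08). Hpse, the heparanase that cuts heparan sulfate chains, was at 5.04, 4.20 and 3.70 CPM with MIZ and 8.94, 8.42 and 7.21 CPM with vehicle and was lower as well (-1.04, SE 0.12, edgeR adjusted p = 1.1e-05). Cilp, a matrix protein that binds TGF-beta, was at 0.393 to 0.597 CPM with MIZ and 0.313 to 0.597 CPM with vehicle, against 55.0 to 57.2 CPM in undifferentiated cells, so that 0.943% of the undifferentiated mean was left with MIZ and 0.852% with vehicle. Of the 20 matrix members 11 (55.0%) were higher with MIZ and 3 (15%) lower, against 35.9% and 35.1% of all genes tested. The group's median was 0.65, and in the 18 alternative analyses 11 or 12 were higher and 3 lower. Among 46 matrix glycoproteins and proteoglycans that reached 10 CPM in undifferentiated cells, 9 were members, 14 were at most 1/8 with vehicle only and 1, lumican (Lum), with MIZ only, at 2.56 CPM with MIZ and 13.9 CPM with vehicle, against 85.5 CPM.

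**Figure D5:**
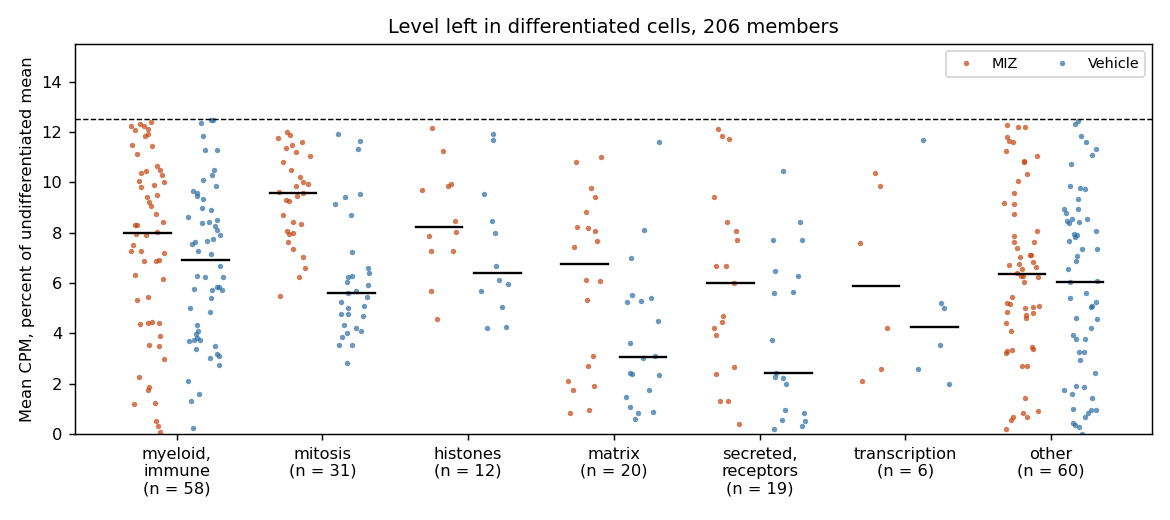
Mean CPM as a percent of the undifferentiated mean, with MIZ (left) and with vehicle (right), for the 206 members in 7 role groups; points are genes, bars are group medians and the dashed line is the limit of 1/8 that chose them. The bars stand at 6.77% with MIZ and 3.06% with vehicle in the matrix group and at 9.58% and 5.59% in the mitosis group, whereas in the myeloid group they are at 7.99% with MIZ and 6.91% with vehicle.

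The secreted signals were led by Ccn3 (chr15:54745702-54754039), a matricellular growth regulator of the CCN family and, per kb of exon, the highest of all members in undifferentiated cells, with 455 CPM per kb. In CPM it was at 65.0, 44.5 and 44.4 with MIZ and 3.72, 3.98 and 4.93 with vehicle, against 1293, 1271 and 1348 in undifferentiated cells. Every MIZ library lay far above every vehicle library (log2 fold change 3.46, SE 0.16, edgeR adjusted p = 8.7e-09), yet with MIZ only 3.93% of the undifferentiated mean was left. Ptn, the heparin-binding growth factor pleiotrophin, was at 16.5, 15.2 and 22.2 CPM with MIZ and 2.16, 3.72 and 5.32 CPM with vehicle, against 607 to 724 CPM (2.07, SE 0.24, edgeR adjusted p = 1.3e-05). Mdk, midkine, the relative of pleiotrophin, was at 3.07, 3.64 and 2.81 CPM with MIZ and 0.730, 0.856 and 1.16 CPM with vehicle, against 37.9 to 45.3 CPM, and so both genes of this family were higher with MIZ (Mdk 1.62, SE 0.17, edgeR adjusted p = 7.1e-06).

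C1qtnf3 (chr15:10952332-10980150), the adipokine CTRP3 of the C1q/TNF family, had the largest called difference among members with counts in both differentiated groups. It was at 7.001, 7.02 and 7.34 CPM with MIZ and 0.104, 0.298 and 0.270 CPM with vehicle, against 100, 102 and 118 CPM in undifferentiated cells (log2 fold change 4.72, SE 0.17, edgeR adjusted p = 1.2e-09). Igf2, the insulin-like growth factor of fetal and neonatal tissue, was at 36.9, 32.4 and 25.1 CPM with MIZ and 21.6, 22.3 and 23.3 CPM with vehicle, against 250 to 285 CPM (0.35, SE 0.11, edgeR adjusted p = 0.016). The Igf2 call was lost without MIZ replicate 1 (0.22, edgeR adjusted p = 0.072) and without vehicle replicate 2 (0.33, edgeR adjusted p = 0.052), and its exons overlap those of the antisense gene Igf2os.

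Of 23 genes of Wnt ligands, receptors and antagonists that reached 10 CPM in undifferentiated cells, 3 were members. The 23 genes kept a median of 53.9% of the undifferentiated mean with MIZ and 20.2% with vehicle. Sfrp2, which binds Wnt proteins, was at 17.4, 10.5 and 10.4 CPM with MIZ and 7.02, 10.96 and 14.2 CPM with vehicle, against 268 to 320 CPM in undifferentiated cells, and the differentiated groups overlapped (0.09, SE 0.24, edgeR adjusted p = 0.74). Lgr5, the R-spondin receptor of stem cells, was at 0.970, 0.395 and 0.418 CPM with MIZ and 0.348, 0.637 and 0.312 CPM with vehicle, against 43.7 to 47.3 CPM. Dkk2, which blocks Wnt co-receptors, was at 1.18, 1.61 and 0.955 CPM with MIZ and 0.139, 0.239 and 0.623 CPM with vehicle, and was higher (1.65, SE 0.36, edgeR adjusted p = 0.0017).

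Guidance cues and their receptors made up a further part. Sema3d and Sema3f are secreted semaphorins, Plxnc1 is a semaphorin receptor and Robo2 a receptor for Slit proteins. Sema3d was at 2.54, 2.03 and 1.403 CPM with MIZ and 0.417, 0.497 and 0.852 CPM with vehicle (log2 fold change 1.59, SE 0.27, edgeR adjusted p = 0.00030), and Sema3f and Robo2 were higher too, by 0.53 and 0.68. Plxnc1 was at 5.52, 5.64 and 4.39 CPM with MIZ and 9.32, 8.75 and 7.40 CPM with vehicle, and was lower (-0.84, SE 0.11, edgeR adjusted p = 5.7e-05). The orphan receptor Gpr162 was at 0.185, 0.113 and 0.328 CPM with MIZ and 0.487, 0.796 and 1.39 CPM with vehicle and was lower (-2.31, SE 0.46, edgeR adjusted p = 0.00092). In the whole group of 19, 12 (63.2%) were higher and 3 (15.8%) lower with MIZ, against 35.9% and 35.1% of all genes tested. The third lower member was Agtr2, the angiotensin II receptor of type 2, and the group's median was 0.61. The count of higher members was 9 without MIZ replicate 1 and 9 without vehicle replicate 2. Wider lists, members or not, leaned the same way. Of 52 growth factor genes tested, 34 were higher and 13 lower, and of 54 guidance and neuronal genes 32 and 11. The Agtr2 call (-0.95, SE 0.29, edgeR adjusted p = 0.014) was lost without MIZ replicate 2 (-0.78, edgeR adjusted p = 0.060) and without vehicle replicate 3 (-0.59, edgeR adjusted p = 0.055).

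Of the 6 members in transcription and chromatin, Plagl1, an imprinted zinc-finger factor, was the most abundant. It was at 27.9, 25.3 and 27.3 CPM with MIZ and 10.99, 11.6 and 16.1 CPM with vehicle, against 253 to 266 CPM in undifferentiated cells, and was higher with MIZ (log2 fold change 0.91, SE 0.12, edgeR adjusted p = 3.3e-05). Hhex, a homeobox factor, was lower (-0.74, SE 0.20, edgeR adjusted p = 0.0069). Eya1, a transcriptional co-activator of development, was at 0.762, 0.761 and 0.657 CPM with MIZ and 0.904, 0.836 and 1.27 CPM with vehicle, which did not pass the threshold (-0.61, SE 0.25, edgeR adjusted p = 0.050).

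In the remaining group of 60, Anpep, the aminopeptidase N or CD13 of stromal and myeloid cells, was the most abundant. It was at 10.1, 9.53 and 12.5 CPM with MIZ and 35.3, 38.8 and 40.6 CPM with vehicle, against 311 to 340 CPM in undifferentiated cells (log2 fold change -1.98, SE 0.10, edgeR adjusted p = 1.2e-08). Abcc9, the sulfonylurea receptor that also marks pericytes, was at 0.716, 0.761 and 0.836 CPM with MIZ and 2.71, 2.61 and 1.87 CPM with vehicle (-1.76, SE 0.18, edgeR adjusted p = 6.3e-06). It was the only member in a list of 17 pericyte and smooth muscle markers. Of the 16 tested most went the other way, with 10 higher and 4 lower with MIZ, against 35.9% and 35.1% of all genes tested. The list's sum was 7871 to 9860 CPM with MIZ, 376 to 507 CPM with vehicle and 1292 to 1472 CPM in undifferentiated cells. Olfml1, which codes for a secreted protein with an olfactomedin domain, had 10 counts in all MIZ libraries together and 108 in all vehicle libraries, against 2128 in undifferentiated cells (-3.33, SE 0.58, edgeR adjusted p = 0.00036). AW551984 was lower too, at 0.836 to 1.04 CPM with MIZ and 1.495 to 2.68 CPM with vehicle.

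Others of this group stayed higher with MIZ. Ctnna2, the neuronal alpha-catenin, was at 0.878, 0.620 and 0.836 CPM with MIZ and 0.0695, 0.0796 and 0.0623 CPM with vehicle, against 22.5 to 25.4 CPM in undifferentiated cells (log2 fold change 3.28, SE 0.28, edgeR adjusted p = 1.1e-06). Pde8b, a cyclic AMP phosphodiesterase, was at 3.12, 3.07 and 3.34 CPM with MIZ and 0.174, 0.497 and 0.540 CPM with vehicle, against 26.3 to 29.6 CPM (2.72, SE 0.21, edgeR adjusted p = 5.1e-07). Pgm5, a phosphoglucomutase-like protein of adherens junctions, was at 10.2, 6.93 and 7.04 CPM with MIZ and 0.522, 1.03 and 2.31 CPM with vehicle, against 72.1 to 75.9 CPM (2.42, SE 0.31, edgeR adjusted p = 3.4e-05). Lrrn3 (3.05), the matrix gene Matn4 (2.57), Rasgrp3 (2.28) and Pcp4l1 (2.03) had log2 fold changes of a like size, with no overlap between MIZ and vehicle libraries. In this group 18 (30%) were higher and 17 (28.3%) lower, against 35.9% and 35.1% of all genes tested, with a median of 0.01. The 18 include Kcns1, whose call is not relied on.

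The deepest falls were those of genes that the differentiated libraries barely held. P2ry13, a purinergic receptor of microglia and macrophages, had 1 count in the MIZ libraries together and 3 in the vehicle libraries, against 1528 in undifferentiated cells. Kcns1, a silent potassium-channel subunit, had 11 counts with MIZ and none with vehicle. Taking a floor of 3 counts over the vehicle libraries, Kcns1 was at least 4.15-fold higher with MIZ than with vehicle, and at least 510-fold lower with vehicle than in undifferentiated cells, by counting error only. Scg2, a granin of secretory vesicles, was at 0.393, 0.536 and 0.298 CPM with MIZ and 0.661, 0.398 and 0.540 CPM with vehicle, against 93.6 to 113 CPM in undifferentiated cells. Nxpe5 was at 2.10, 1.83 and 1.25 CPM with MIZ and 0.800, 0.736 and 0.914 CPM with vehicle, against 183 to 190 CPM. Treml2, Prss35, Mcoln3 and Il21r were each at most 0.904 CPM in any differentiated library.

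In the mm10 genome the members were spread over every autosome and the X chromosome. Chromosome 1 held 19 of them (9.22%, against 5.95% of the 9554 genes at 10 CPM or more), chromosome 13 held 15 (7.28% against 3.98%), 12 of which were the histones, and chromosome X 12 (5.83% against 3.12%). Among the autosomes, chromosomes 8 and 12 held the fewest, with 2 each (0.971% of members, against 5.34% and 3.31%). Of the 206, 34 lay within 100 kb of another member or next to it, a share not set against other genes, in 14 clusters. Besides the histones and the C1q genes, these were Tmem273, Vstm4 and Wdfy4 on chromosome 14, and the pairs Cd200r1 and Cd200r4, Cd84 and Gm10521, Cdca3 and Gpr162, Fbn2 and Slc27a6, Fcgr2b and Fcgr3, Fcrls and Cd5l, Kif11 and Hhex, Tlr8 and Tlr7, and Treml2 and Trem2. Neighbours did not always move together, since Fcrls and Cd5l were both higher with MIZ, Kif11 was higher and Hhex lower, and Treml2 was lower while Trem2, a lipid receptor of macrophages, was higher (0.49, SE 0.13, edgeR adjusted p = 0.0060). The Kif11 call was lost without any one of MIZ replicates 2 and 3 and vehicle replicates 1 and 2. It was also lost with only the 6 differentiated libraries in the fit (edgeR adjusted p = 0.069). The Treml2 call, on 5 counts with MIZ and 21 with vehicle, was lost without any one of MIZ replicates 1 and 2 and vehicle replicate 1. Exons of 38 members, Mfap4, Kif20a, Itga4, Eln, Sfrp2, Pde8b, Matn4 and Abcc9 among them, overlap exons of another gene, and since the strand setting of the counting is not given in the sources used here, reads of such pairs cannot be told apart.

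Of the other motifs searched in the 163 promoters, the AP-1 letters TGANTCA were in 7.98% (4.48% of promoters of genes at 10 CPM or more), the TEAD letters GGAATG in 11.7% (11.1%), the E-box CANNTG in 71.2% (61.1%) and the CArG box in 0.613% (1.37%). Each motif was searched on both strands. A missing match says only that these letters are not in this window.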

How the data were processed

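The members, role groups, gene lists and tests were chosen with earlier results of these data known. The authors depleted ribosomal RNA, selected poly(A) RNA, sequenced paired reads, trimmed them with Trim Galore 0.6.7, aligned them to GRCm38 (mm10) and deposited raw counts per gene, not normalized. The methods name STAR's gene counting and the labels HTSeq, and annotation release and strand setting are not given in the sources used here. CPM was each count over its library total. MIZ was compared with vehicle in 1 fit of all 9 libraries (edgeR 4.0.16, R 4.3.3, quasi-likelihood, TMM, genes reaching 5 counts in 3 or more libraries, Benjamini-Hochberg over all genes). The standard error is the log2 fold change over the root of its F statistic. The test was checked on simulated data. Alternatives were other scalings, filters and limits, DESeq2 1.42.0, a replicate block and fits without each library.

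Named genes were drawn from the 15 most abundant members, the 10 with the deepest fall, and up to 10 called higher and 10 lower. Those called had no overlap and at least 0.5 CPM in the higher group. Further sets were up to 5 per list, those at the limits and neighbours. Not every gene of these sets is described. Other named members, such as Cd5l, Tlr7, Hmmr, Hpse, Cenpa and Plagl1, were chosen after their values were seen. Positions and exon lengths came from GENCODE (GRCm38) and promoters from RefSeq. Python 3.11.15 and matplotlib 3.10.9 drew the figures. Intervals cover counting error only, and p-values the spread between 3 libraries per group.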

Additional observations from a re-analysis of the deposited data

How the results depend on the processing

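The number of members, 206, was 180 with TMM-normalized library sizes (all 180 shared), and moved to 132 when every differentiated library had to be at most 1/8 of the lowest undifferentiated one, to 469 at a limit of 1/4 and to 56 at 1/16. Without each library in turn it was 198 to 211. Called higher ran from 60 to 80 and called lower from 38 to 52 without each library, and the median log2 fold change from 0.13 to 0.24. With library totals the median was 0.37, while that of all genes shifted by 0.14. Of 124 called members 93 kept their call in every one of the 18 alternatives that tested them, and none changed sign. Among uncalled genes, Fbn2 reversed to -0.21 without MIZ replicate 1 and -0.06 without vehicle replicate 2, and Sfrp2 to -0.21 without MIZ replicate 1 and -0.10 without vehicle replicate 1, with a range of -0.21 to 0.32 for Sfrp2 and of -0.21 to 0.22 for Fbn2 without each library. Over all genes, same-numbered libraries did not deviate together (correlations of -0.04 to 0.06), and the numbers were not taken to pair the samples. The 31 mitosis members did follow the number, with replicate 3 highest for 30 with MIZ, 29 with vehicle and 22 in undifferentiated cells. With the replicate block 80 members were higher and 47 lower, with a median of 0.22, and 18 mitosis members were higher in place of 15. Members of a few counts in differentiated libraries, such as P2ry13 and Kcns1, allow no precise difference.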
